A study of Mus musculus with 27 samples.

Results

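Semaphorins, plexins and neuropilins are the ligands, receptors and co-receptors of a cell guidance system, and their transcripts were followed here in the mouse lacrimal gland through injury and repair. Members were taken by name: every protein-coding gene with a symbol of the Sema or Plxn series, the unrelated Plxdc genes left out, plus Nrp1 and Nrp2. This gave 31 of the 43346 genes in the deposited table, namely 20 semaphorins, 9 plexins and 2 neuropilins. A gene entered the tests when it reached a normalized value of 10 in at least 2 libraries, which 26 of the 31 members did, namely 16 semaphorins, 8 plexins and both neuropilins.

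The glands came from wild type BALB/c mice, aged 8 to 10 weeks by the labels, while the study's methods give a slightly higher age. Day 0 glands were left uninjured. The other glands were injected with IL-1α (1 µg), a cytokine that starts acute inflammation, and were taken on each of days 1 to 5 or on day 7 or 14, except for a secondary control group that received saline and was taken on day 14. No group carried an altered gene, each group had 3 mice, and polyadenylated RNA of the whole gland was sequenced. Because saline was given on day 14 only, the effect of the injection itself on the earlier days cannot be told apart from that of IL-1α. Of the 27 samples, 26 had values, and day 7 replicate 2 was not analysed here. The study left day 2 replicate 3, day 4 replicate 1 and day 7 replicate 1 out of its tests because they did not group with their replicates in its cluster analyses, so that the tests below used 23 libraries and day 7 rested on 1 library.

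Semaphorins share an extracellular sema domain. Those of class 3 are secreted, while those of classes 4 to 6 span the membrane and Sema7a is held by a lipid anchor. Plexins are their main receptors and carry a GTPase-activating domain on the inner side that acts on small G proteins of the Ras and Rap type. Most class 3 semaphorins also need a neuropilin, which binds the ligand and sits beside a class A plexin, and neuropilins bind VEGF as well. First known from axon guidance, the system also acts on blood vessels, leukocytes and epithelia, and class 3 semaphorins take part in cleft formation in the developing mouse salivary gland.

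The bases just before the transcript starts are shown for the 3 members with the largest day 1 rise, Plxnb1, Sema6b and Nrp2, since those 3 genes carry much of the early response described below. The sequences are from RefSeq (build GRCm38.p6), they run 5′ to 3′ on the gene's strand, and they stop where an annotated exon of the same strand begins. Capitals mark the GC box GGGCGG on either strand and, in the first Sema6b window, the AP-1 motif TGANTCA.
Plxnb1 (chr9:109095186-109095388, plus strand): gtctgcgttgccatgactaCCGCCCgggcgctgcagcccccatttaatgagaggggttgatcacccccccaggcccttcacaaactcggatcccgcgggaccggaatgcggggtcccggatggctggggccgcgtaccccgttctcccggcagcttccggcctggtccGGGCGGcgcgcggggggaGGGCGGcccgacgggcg
Nrp2 (chr1:62703067-62703284, plus strand): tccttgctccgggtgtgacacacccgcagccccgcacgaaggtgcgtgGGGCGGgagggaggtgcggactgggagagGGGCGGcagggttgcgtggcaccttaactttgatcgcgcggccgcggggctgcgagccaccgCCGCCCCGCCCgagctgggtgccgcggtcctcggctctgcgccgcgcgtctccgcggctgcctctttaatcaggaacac
Sema6b, inner start (chr17:56133853-56134102, minus strand): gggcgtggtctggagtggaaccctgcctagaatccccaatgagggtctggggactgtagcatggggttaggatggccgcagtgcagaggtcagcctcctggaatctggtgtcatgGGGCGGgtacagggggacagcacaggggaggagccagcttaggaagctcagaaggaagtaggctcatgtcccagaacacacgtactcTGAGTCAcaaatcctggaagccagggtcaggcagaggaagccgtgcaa
Sema6b, outer start (chr17:56140344-56140593, minus strand): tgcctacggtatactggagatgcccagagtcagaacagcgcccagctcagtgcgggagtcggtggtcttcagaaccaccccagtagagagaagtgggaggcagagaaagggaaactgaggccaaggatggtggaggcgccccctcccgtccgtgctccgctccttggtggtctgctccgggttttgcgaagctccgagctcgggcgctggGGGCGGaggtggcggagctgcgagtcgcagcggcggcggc
The Plxnb1 stretch held 3 GC boxes and the Nrp2 stretch 4, of which 2 overlap by a base. Of the 31 members, 26 had promoter entries, 37 windows in all, with none for Plxna1, Plxna4, Sema3b, Sema3f and Sema6a. In the 250 bases before the start, 27 of the 37 member windows (73.0%) held a GC box, against 32.7% of all 32851 windows, and the median GC content was 64.0% against 52.4%. The AP-1 motif was in 3 member windows (8.11%), those of Sema4c, Sema4d and Sema6b, against 6.75% of all windows. The NF-kB motif (GGG, any 2 bases, TTT, CC) was in 1 member window (2.7%), that of Sema6c, against 1.41%, and TATAAA in 0 of the 37 against 12.4%. These matches, searched on both strands, describe the letters in these windows and nothing more.

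A normalized value is a read count divided by the size factor of its library, and depth estimated from what a single read was worth came to 9474709 to 13102294 counts per library. Levels in the uninjured gland differed widely between members when set per kb of exon, the scale on which genes can be compared. Plxnb2, the class B plexin that binds several class 4 semaphorins, led by far with a day 0 mean of 154 normalized units per kb (libraries 131 to 169.6). The next levels were those of Sema3c, a secreted class 3 ligand, at 25.4 (17.5 to 35.4), Sema4a at 20.7 (20.4 to 20.9) and Plxna1 at 17.5 (14.7 to 20.2). Plxnb2 did not overlap with any other member, whereas Sema3c, Sema4a and Plxna1 overlapped with a neighbour in this order. Sema4d (15.2), Sema4b (14.5), Sema4g (12.7) and Nrp1 (12.0), all means per kb, followed with overlapping libraries, so that class 4 supplied 4 of the 5 highest semaphorins.

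The lower part of the order held Nrp2 at 2.25 per kb, Plxnb1 at 3.16 and Sema6b at 2.08, which later rose. Plxnb3, Sema3a, Sema3e, Sema4f and Sema5b did not pass the filter, and none of them reached a value of 10 in any of the 26 libraries. Their highest value was 9.88, for Sema3a in day 7 replicate 1. Sema3a is the ligand best known for growth cone collapse and Sema3e a ligand of Plxnd1, and at this depth no difference between groups could be read for these 5 genes. Plxna4 and Sema6c passed the filter on 4 of the 23 libraries each, Sema6b on 11, Sema6a on 14 and Sema3b on 16, all other tested members on at least 20.

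**Figure D1:**
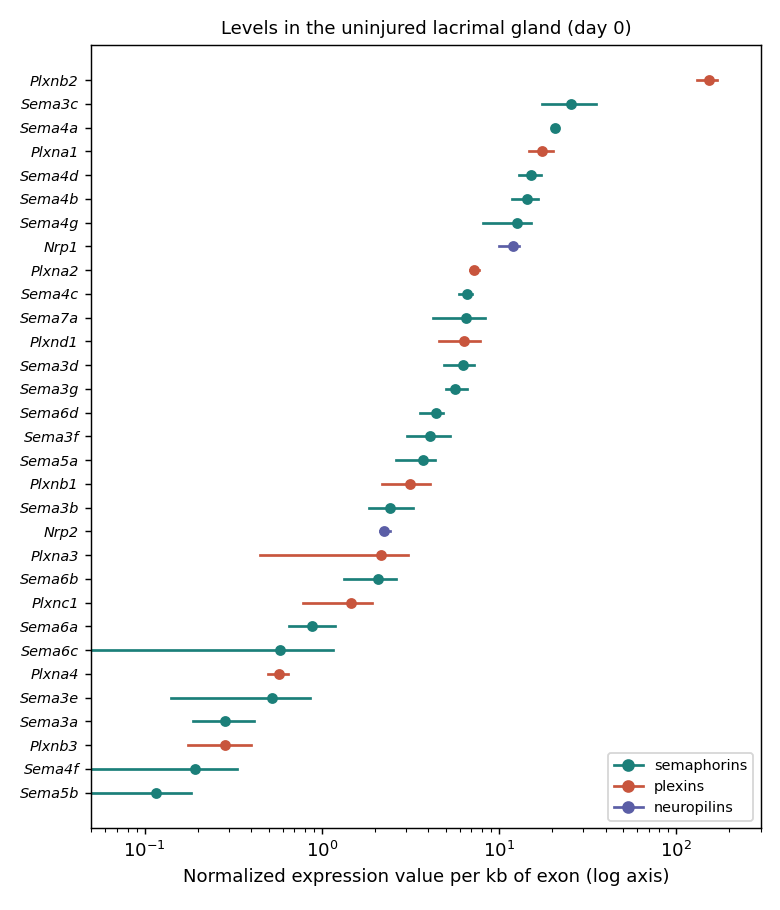
Normalized expression value per kb of exon (log axis) in the 3 day 0 libraries for all 31 members, with the mean as a point and the lowest to highest library as a line. A line that reaches the left edge has a library at or under 0.05. Plxnb2 stands apart at a mean of 154, and the 5 untested members lie at or below 0.523.

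A member was called when limma's adjusted p, taken over all 13762 tested genes, was at most 0.05 and its fold change at least 2. Log2 fold changes are on the scale log2(value + 1) with their standard error (SE), and this scale understates changes of low values. On day 1, 5 members rose and 2 fell among the 26, where 16.4% of all tested genes were called (11.3% up and 5.09% down). On day 2, 6 rose and 0 fell, against 12.2% of all genes (11% up and 1.14% down). The count then dropped to 1 rise on day 3, against 3.15% (2.57% up and 0.574% down). On day 4 there were 5 rises and 0 falls, against 7.39% (6.97% up and 0.421% down), and on day 5 there were 7 rises and 0 falls, against 10.4% (9.8% up and 0.589% down). All comparisons with day 0 share the same 3 control libraries, so the days are not independent of each other. In bulk RNA, fewer cells of a type and less RNA per cell cannot be told apart, and neither can more cells and more RNA per cell. Nothing in the labels says more of the replicates than that they are separate mice.

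Across days 1 to 14 after IL-1α, 12 of the 26 tested members (46.2%) were called at least on 1 day, while 23.6% of all tested genes were. The median member moved upwards in the deposited scaling. The size factors hold the median gene near no change in advance, so its flat course is not a result. On day 5 the median log2 change of the 26 members was 0.71, with 25 higher and 1 lower, and the median of all tested genes was 0.01. On day 4 it was 0.52, with 24 higher and 2 lower. On days 1, 2 and 3 it was 0.33, 0.58 and 0.20. The member medians on day 14, given below, were also positive after saline and after IL-1α, against the same day 0 libraries. Over the 11 comparisons described here there were 35 calls in 13 members. Of these, 16 were kept in every fit that left out a library, and 8 were kept under every alternative tried: Nrp2 on days 1, 2 and 5, Plxnb1 on days 1 and 2 and Sema6b on day 1, all against day 0, and Sema3b and Sema3c on day 5 against day 1.

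The 3 libraries that the study left out bear on days 2, 4 and 7. With all 26 libraries in the fit, 7 members were called on day 1, 7 on day 2, 0 on day 3, 1 on day 4 (Nrp2), 5 on day 5, 3 on day 7 and 0 on day 14. These are counts of members only, without the share over all tested genes in that fit. They cannot tell a trait of the members from a shift over all genes. All 6 day 2 calls were kept and Sema6c was added (2.09), with Nrp2 at 1.93 and Plxnb1 at 1.98. On day 4 the calls of Plxna3 (1.12), Plxnb1 (0.95), Sema3f (0.99) and Sema4c (0.67) were lost.

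Scaling mattered for these counts. When values were scaled to library totals in place of the deposited size factors, the median of all tested genes moved by 1.18 on day 1, 0.91 on day 2, 0.69 on day 3, 0.73 on day 4 and 0.79 on day 5. Under that scaling 19 members rose and 0 fell on day 1, against 5 and 2 in the deposited scaling, and 19, 12, 15 and 18 rose on days 2, 3, 4 and 5. Of all tested genes, 62.1% rose under totals on day 1, 41.6% on day 2, 21.2% on day 3, 28.1% on day 4 and 33.5% on day 5. The totals are dominated by a few transcripts: the 10 highest genes held 70.8% to 75.3% of all values at day 0 and 53.8% to 54.3% on day 1. A list of 6 salivary gland markers varied strongly between replicates, with sums of 3512 to 196987 at day 0 and 59.5 to 1714584 on day 3. The effect of such transcripts on the totals and on the member values was not tested. The directions below are in the deposited scaling, and where a member described as lower turned under totals, its value is given beside it. On day 1, 8 of the 26 members were lower in the deposited scaling and 1, Sema3c, under totals. Plxna2, Plxna4, Sema3b, Sema3d, Sema4g, Sema5a and Sema6d changed direction, Sema4g being the 1 called member among them.

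**Figure D2:**
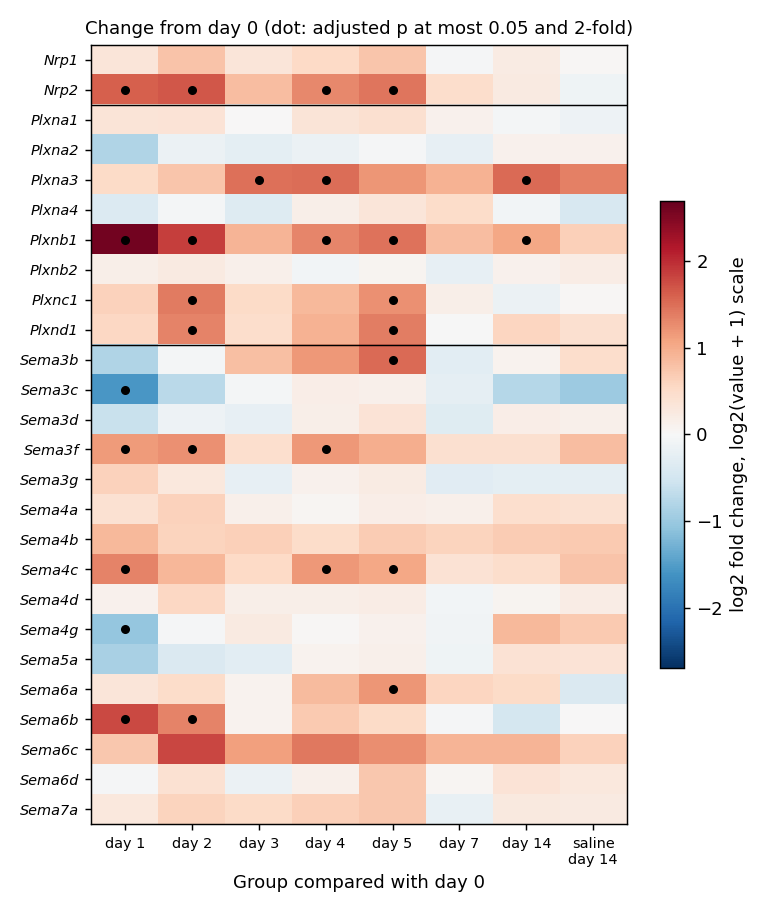
Log2 fold change on the log2(value + 1) scale of the 26 tested members (rows, neuropilins at the top, then plexins, then semaphorins) for each group against day 0 (columns), with a dot where the call was made. Rises of Nrp2 and Plxnb1 run through days 1, 2, 4 and 5, and the falls of Sema3c and Sema4g are on day 1, that of Sema4g turning to 0.12 when scaled to totals.

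Marker genes of infiltrating and vascular cells moved over the same days and are given here because the member changes stand beside them. All 8 neutrophil markers rose on days 1 and 2, with sums of 1.75 to 6.50 at day 0, 1973 to 2534 on day 1 and 736 to 927 on day 2, with Retnlg, Trem1 and Mmp8 at 0 in every day 0 library. Of 12 monocyte and macrophage markers, 9 rose on day 1, 12 on day 2, 11 on day 4 and 10 on day 5, with sums of 1054 to 1760.4, 4155 to 5589, 7995 to 8666, 3936 to 5328 and 3098 to 5217 on days 0, 1, 2, 4 and 5. Endothelial cells were followed by 10 markers, of which 9 were tested. Of the 9, 6 rose on day 1, 7 on day 2, 2 on day 4 and 8 on day 5. All 10 together summed to 300.03 to 454, 699 to 887, 839 to 871, 664 to 699 and 721 to 1099.98 on days 0, 1, 2, 4 and 5.

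Of 8 fibroblast markers, 2 fell on day 1, 2 rose on day 2 and 4 rose on days 4 and 5, and their sum was 4708 to 5713 at day 0, 4336 to 4940.5 on day 1, 7676 to 8992 on day 2, 15556 to 18818 on day 4 and 18701 to 27764 on day 5. All 8 lacrimal acinar markers were found in the uninjured gland, and 3 of them fell on day 1, with a sum of 72592 to 107587 at day 0 and 18352 to 19976 on day 1. Skeletal muscle markers summed to 2429.98 to 2814 in the day 2 libraries against 13.0 to 588 at day 0, and 5 of 6 rose on that day, while on the other days at most 1 did. Their sum varied strongly between libraries of other groups, from 63.4 to 2391.5 on day 14 after IL-1α and from 10.4 to 686 on day 5. Of 5 tested Schwann cell and nerve markers, 0 were called on days 1, 2 and 4 and 1 rose on day 5. The part of these cell types in the member changes was not tested.

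Nrp2, a co-receptor for Sema3f and VEGF-C that lymphatic endothelium and myeloid cells are known to carry, was the neuropilin that rose (chr1:62703285-62818695, plus strand, GRCm38). Its day 0 libraries held 26.3, 25.2 and 28.6 normalized units, and the day 1 libraries 68.7, 96.4 and 89.1. Values of 95.6 and 80.7 on day 2, 78.2 and 56.6 on day 4 and 72.3, 65.0 and 88.5 on day 5 followed. Every library of these 4 days lay above all 3 day 0 libraries. The log2 rise was 1.62 ± 0.24 on day 1 (adjusted p = 1.44e-05), 1.68 ± 0.27 on day 2 (adjusted p = 8.09e-05), 1.29 ± 0.27 on day 4 (adjusted p = 0.0028) and 1.45 ± 0.24 on day 5 (adjusted p = 0.000238). With the saline group as control the rises were 1.73, 1.79, 1.40 and 1.56, all called. Without day 4 replicate 2 the day 4 call was lost (adjusted p = 0.0739).

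On day 3 Nrp2 lay in between. The libraries held 37.2, 70.0 and 43.8, all above the day 0 libraries and the highest within the day 4 range, and the log2 difference of 0.84 ± 0.24 (adjusted p = 0.0334) was under 2-fold. By day 14 Nrp2 was at 26.8, 26.8 and 44.9 after IL-1α and at 19.2, 28.3 and 27.6 after saline, overlapping with day 0. The 5 lymphatic endothelial markers summed to 46.8 to 60.6 at day 0, with Ccl21a and Mmrn1 at 0. They summed to 172 to 215 on day 1 and to 111 to 172 on day 2. Prox1 was at 0 in the kept day 2 libraries, and Prox1 and Mmrn1 were at 0 in those of day 4. Only 2 of these markers were tested, and 1 of the 2 rose on days 1, 2, 4 and 5. Their part in the Nrp2 rise was not tested.

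Nrp1, the co-receptor for Sema3a and for VEGF-A, was the more abundant neuropilin and moved less. It held 98.3, 127 and 127 at day 0, 120.3, 164 and 158 on day 1, 196 and 203 on day 2 and 192, 178 and 219 on day 5. Day 1 overlapped with day 0, whereas days 2 and 5 did not. The log2 difference was 0.32 ± 0.15 on day 1 (adjusted p = 0.09), 0.77 ± 0.17 on day 2 (adjusted p = 0.00145) and 0.74 ± 0.15 on day 5 (adjusted p = 0.00111), all under 2-fold and so not called. On the per-kb scale the ratio of the pair narrowed: Nrp1 was at 12.0 and Nrp2 at 2.25 at day 0, and they were at 15.0 and 7.16 on day 1.

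Plxnb1, the receptor for Sema4d and a partner of the receptor kinases Met and Erbb2, showed the largest rise of any member (chr9:109095389-109119917, plus strand). Its day 0 libraries held 21.1, 30.9 and 39.0, and those of day 1 held 171, 209 and 175. The values then declined to 119.9 and 100.1 on day 2, 45.5, 62.3 and 62.2 on day 3 and 75.8 and 74.4 on day 4. All kept libraries of days 1 to 4 were above the day 0 libraries, and all of day 1 were above those of every other kept library. In day 4 replicate 1, which the study left out, Plxnb1 was at 34.3, within the day 0 range. The log2 rise was 2.61 ± 0.24 on day 1 (adjusted p = 2.65e-08), 1.86 ± 0.27 on day 2 (adjusted p = 2.54e-05) and 1.32 ± 0.27 on day 4 (adjusted p = 0.00209). On day 3 the difference of 0.91 ± 0.24 stayed under 2-fold (adjusted p = 0.0223).

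Day 5 libraries of Plxnb1 held 129, 69.3 and 62.7, with replicate 1 well above the other 2, and the log2 rise was 1.46 ± 0.24 (adjusted p = 0.000213). On day 14 the values were 68.3, 52.4 and 66.1 after IL-1α and 50.8, 38.1 and 53.0 after saline, ranges that overlap. The log2 rise over day 0 was 1.05 ± 0.24 after IL-1α (adjusted p = 0.0148), and this call was lost without day 0 replicate 1 (adjusted p = 0.0778) or day 14 replicate 1 (adjusted p = 0.0592). Against saline, Plxnb1 stayed called on day 1 (1.96) and day 2 (1.21) and was not called on day 4 (0.67) or day 5 (0.81). Gm7628, an antisense gene that overlaps Plxnb1, had a mean value of 0.77 over all libraries, and whether the counting used strand was not given in the sources used here.

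Plxnb2, the most abundant plexin, held 1012, 1309 and 1238 at day 0 and 1232, 1361 and 1341 on day 1, which overlap. Its log2 difference was 0.15 ± 0.11 on day 1 (adjusted p = 0.299) and 0.07 ± 0.11 on day 5 (adjusted p = 0.657), with a 95% interval on day 5 of -0.16 to 0.31. It was called on no day.

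Plxnd1, the plexin of endothelial cells that binds Sema3e without a neuropilin, rose on days 2 and 5. It held 33.3, 49.2 and 57.2 at day 0, 53.5, 84.9 and 66.3 on day 1, 126 and 108 on day 2, 88.0 and 88.3 on day 4 and 121, 110.4 and 128 on day 5. Day 1 overlapped with day 0, while days 2, 4 and 5 lay above it. It rose by 1.34 ± 0.30 on the log2 scale on day 2 (adjusted p = 0.00166) and 1.38 ± 0.26 on day 5 (adjusted p = 0.000794). Against saline the values were 0.92 and 0.95, just under 2-fold. Its ligand Sema3e did not pass the filter. On days 2 and 5, 7 and 8 of the 9 tested endothelial markers rose too. The sum of all 10 endothelial markers was also higher on day 1 (699 to 887, against 300.03 to 454 at day 0). Plxnd1 was not called on day 1 (0.55, adjusted p = 0.102). The part of endothelial cells in the Plxnd1 rise was not tested.

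Plxnc1, the receptor of Sema7a, which is found on myeloid cells, also rose on days 2 and 5. The day 0 libraries held 14.0, 16.0 and 6.50, those of day 2 held 34.3 and 29.2 and those of day 5 held 36.9, 24.0 and 24.9. Days 2 and 5 did not overlap with day 0, where replicate 3 was the lowest. On the log2 scale it rose by 1.39 ± 0.41 on day 2 (adjusted p = 0.0138) and 1.23 ± 0.37 on day 5 (adjusted p = 0.0172). Without day 0 replicate 3 both calls were lost, at 1.03 (adjusted p = 0.067) and 0.86 (adjusted p = 0.0948). Leaving out day 2 replicate 1 (adjusted p = 0.112), day 2 replicate 2 (adjusted p = 0.0517) or, for day 5, day 5 replicate 1 (adjusted p = 0.0791) ended them too.

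The class A plexins, which pair with neuropilins to receive class 3 semaphorins and also bind class 6 semaphorins directly, followed no common course. Plxna1 held 133, 158 and 183 at day 0 and 222, 192 and 224 on day 5, a log2 difference of 0.43 ± 0.13 (adjusted p = 0.0192) that was under 2-fold. Plxna2 was lower on day 1, at 57.4, 75.6 and 78.1 against 121, 133 and 118 at day 0. Its groups did not overlap, but the log2 difference of -0.82 ± 0.13 (adjusted p = 3.33e-05) was under 2-fold as well, and under totals it turned to 0.35 (adjusted p = 0.0569). Plxna4 stayed between 1.86 and 15.4 in all 26 libraries.

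Plxna3 was called up on days 3, 4 and 14, and these calls turned on a single control library. The day 0 libraries held 3.51, 24.0 and 23.4, so that replicate 1 lay far below the other 2, and the values were 38.1, 40.0 and 36.7 on day 3, 44.0 and 34.7 on day 4 and 33.5, 51.2 and 36.1 on day 14. The saline group held 28.1, 36.8 and 41.4. The log2 rise was 1.49 ± 0.46 on day 3 (adjusted p = 0.0449), 1.52 ± 0.51 on day 4 (adjusted p = 0.043) and 1.53 ± 0.46 on day 14 (adjusted p = 0.0461). Without day 0 replicate 1 the values were 0.67, 0.70 and 0.72, with adjusted p of 0.243, 0.196 and 0.213, and against saline they were 0.12, 0.15 and 0.17. Of the 23 fits that each left out a library, 15 lost the calls of days 3 and 14 and 6 lost that of day 4.

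**Figure D3:**
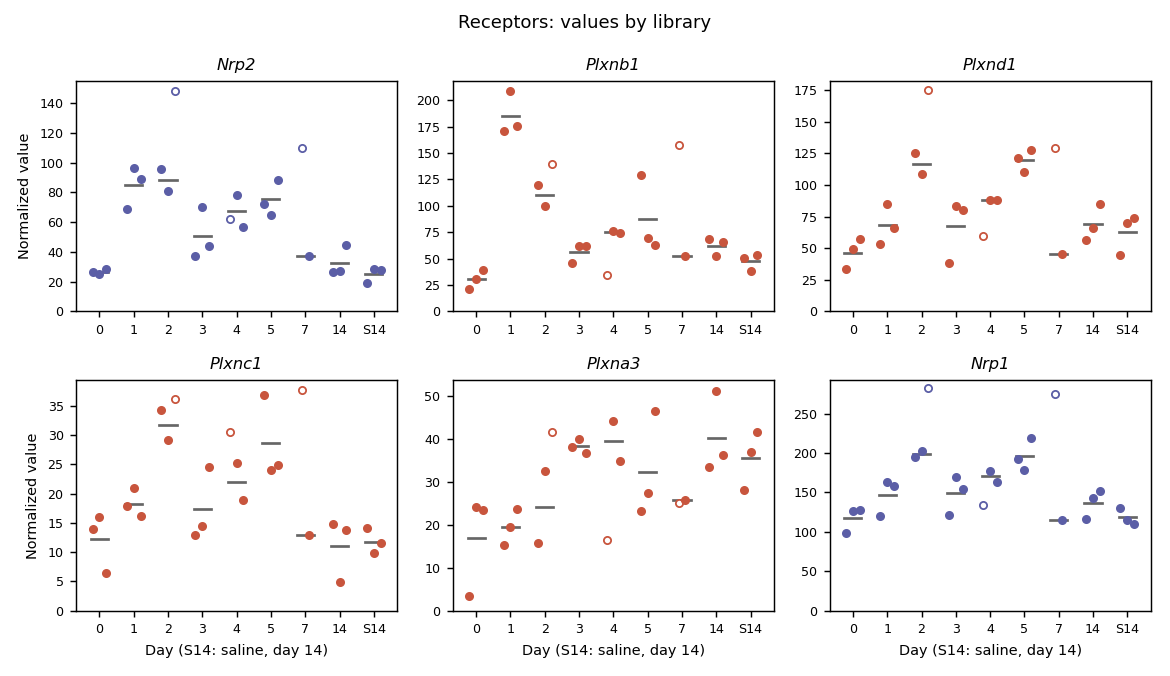
Normalized value of 6 receptor genes in each library (y axis, from 0) by group (x axis, S14 is saline on day 14), with a bar at the mean of the libraries used in the tests and open points for the 3 libraries the study left out. Plxnb1 peaks on day 1 at 171, 209 and 175, while the group means of Plxnd1 and Plxnc1 are highest on days 2 and 5.

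Among the class 3 semaphorins, Sema3c and Sema3f, both secreted, moved in opposite directions on day 1. Sema3c, a ligand that acts through neuropilins and Plxnd1, fell (chr5:17574281-17730268, plus strand). The day 0 libraries held 253, 167 and 125, the day 1 libraries 64.3, 55.3 and 54.5 and the day 2 libraries 105 and 104. Days 1 and 2 lay below all day 0 libraries, although the day 0 libraries themselves ranged widely. The log2 change was -1.57 ± 0.18 on day 1 (adjusted p = 6.58e-07), and on day 2 the difference of -0.73 ± 0.21 (adjusted p = 0.0103) was under 2-fold and turned to 0.17 under totals. Scaled to totals, the day 1 value was -0.40, against a median gene at 1.18.

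Sema3c was back at 176 and 222 on day 4 and 224, 175 and 178 on day 5, within the day 0 range. On day 14 it was lower again in both arms, at 93.7, 106 and 107 after IL-1α and 80.5, 97.0 and 85.2 after saline. The log2 difference from day 0 was -0.76 ± 0.18 (adjusted p = 0.0194) after IL-1α and -0.99 ± 0.18 (adjusted p = 0.009) after saline, both under 2-fold. Against the saline group the day 1 value was -0.59 (adjusted p = 0.0163) and thus not called, whereas Sema3c was called up against saline on day 4 (1.17, adjusted p = 0.000814) and day 5 (1.12, adjusted p = 0.000263).

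Sema3f, the main Nrp2 ligand, rose on days 1, 2 and 4. Its libraries held 15.8, 27.4 and 20.8 at day 0, 49.6, 41.1 and 53.0 on day 1, 53.5 and 47.5 on day 2 and 50.5 and 45.6 on day 4. All of these lay above the day 0 libraries. The log2 rise was 1.16 ± 0.22 on day 1 (adjusted p = 0.000229), 1.24 ± 0.25 on day 2 (adjusted p = 0.000693) and 1.17 ± 0.25 on day 4 (adjusted p = 0.00298). The saline group, at 33.2, 38.1 and 43.7, was also above day 0, by 0.84 ± 0.22 (adjusted p = 0.0397), and with saline as control no Sema3f call remained (0.32, 0.40 and 0.33). Without day 0 replicate 1 the rises on days 1 and 4 were just under 2-fold (0.97 and 0.98), and without day 4 replicate 2 the day 4 call missed the threshold (adjusted p = 0.051).

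Sema3b, another neuropilin ligand, was high on day 5. It held 8.77, 10.3 and 15.6 at day 0, 7.64, 14.8 and 1.47 on day 1, 11.2, 44.5 and 17.3 on day 3 and 46.6, 29.1 and 30.1 on day 5. Day 5 lay above day 0 in all 3 libraries, and day 3 replicate 2 stood out at 44.5. The log2 rise on day 5 was 1.53 ± 0.52 (adjusted p = 0.0325), a call that was lost without day 0 replicate 1 (adjusted p = 0.106), day 0 replicate 2 (0.0711) or any of the day 5 libraries (highest adjusted p 0.116, without replicate 1). It was also lost against saline (1.05, adjusted p = 0.164), with all 26 libraries (adjusted p = 0.0568), without the filter (adjusted p = 0.0835) and with a pseudocount of 0.1 (adjusted p = 0.0507). Sema3d and Sema3g were called on no day. Sema3d held 57.9, 42.3 and 62.4 at day 0 and 33.7, 37.7 and 33.1 on day 1, a lower level in every library, while under totals the difference was 0.55 (adjusted p = 0.0227). Sema3g held 24.6, 22.9 and 29.9 at day 0 and 37.6, 33.7 and 50.8 on day 1, a higher level in every library, and both differences were under 2-fold.

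Sema4c, a transmembrane ligand of Plxnb2, rose on days 1, 4 and 5 (chr1:36548639-36558349, minus strand). The day 0 libraries held 31.6, 27.4 and 32.5, and those of day 1 held 65.3, 94.7 and 77.3. Day 2 held 59.8 and 55.0, day 4 69.2 and 70.4 and day 5 65.9, 65.9 and 60.6, so that every kept library of these days was above the day 0 range. In day 4 replicate 1, which the study left out, Sema4c was at 24.1, below the day 0 libraries. Sema4c rose on the log2 scale by 1.33 ± 0.17 on day 1 (adjusted p = 2.84e-06), 1.17 ± 0.20 on day 4 (adjusted p = 0.000489) and 1.05 ± 0.17 on day 5 (adjusted p = 0.000241). On day 2 the difference of 0.89 ± 0.20 (adjusted p = 0.00156) was under 2-fold. The saline libraries, at 47.3, 48.7 and 61.9, were above day 0 too, by 0.76 ± 0.17 (adjusted p = 0.0246), and against them the rises were 0.57, 0.41 and 0.29, none called. Without day 0 replicate 2 the day 5 rise was 0.98, just under 2-fold. D430040D24Rik, which overlaps Sema4c on the other strand, had a mean value of 5.48.

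Sema4g, a class 4 member of less well known function, fell on day 1 in the deposited scaling only. Its libraries held 70.2, 129 and 131 at day 0, 38.2, 51.2 and 67.0 on day 1, 73.5 and 144 on day 2 and 103, 121 and 122 on day 5. Day 1 lay below day 0, with day 0 replicate 1 close to the highest day 1 library. The log2 change was -1.05 ± 0.26 (adjusted p = 0.0028), and scaled to totals the value was 0.12 (adjusted p = 0.726), under the shift of the median gene. It was also under 2-fold without day 0 replicate 2 (-0.91), day 0 replicate 3 (-0.89) or day 1 replicate 1 (-0.84). On day 14 Sema4g was at 190.1, 229 and 172 after IL-1α and 146, 161 and 228 after saline, all above the day 0 libraries, with log2 differences of 0.88 ± 0.26 (adjusted p = 0.0472) and 0.72 ± 0.26 (adjusted p = 0.122), both under 2-fold.

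The other class 4 members moved within 2-fold. Sema4b held 66.7, 84.6 and 93.6 at day 0 and 144, 149 and 155 on day 1, which do not overlap, and the log2 difference was 0.87 ± 0.18 (adjusted p = 0.000384). It was also higher than day 0 after saline, by 0.71 ± 0.18 (adjusted p = 0.033). Sema4a, which in mice binds Timd2 on T cells, was at 111, 113 and 112 at day 0 and 176 and 169 on day 2, a difference of 0.62 ± 0.17 (adjusted p = 0.00921). Sema4d, the Plxnb1 and Cd72 ligand of lymphocytes, was at 100.01, 133 and 118 at day 0 and 173 and 171 on day 2, a difference of 0.56 ± 0.15 (adjusted p = 0.00575).

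Sema6b, a transmembrane class 6 ligand of class A plexins, rose on days 1 and 2 and overlapped with day 0 on day 3 (chr17:56123085-56140343, minus strand). It held 5.26, 9.15 and 10.4 at day 0, 34.4, 32.4 and 23.6 on day 1, 19.98 and 23.4 on day 2 and 8.36, 12.2 and 6.12 on day 3. Days 1 and 2 lay above day 0, whereas day 3 overlapped with it. On the log2 scale Sema6b rose by 1.77 ± 0.35 on day 1 (adjusted p = 0.000338) and 1.33 ± 0.39 on day 2 (adjusted p = 0.0136). The day 2 call was lost without day 0 replicate 1 (1.07, adjusted p = 0.0589), day 2 replicate 1 (adjusted p = 0.0616) or day 2 replicate 2 (adjusted p = 0.0997). A single read was worth 1.14 to 1.75 units at day 0 and 0.64 to 0.74 units on day 1, so the day 0 values of Sema6b rest on few reads. Both Sema6b windows printed above belong to this gene, and the counts do not separate its starts.

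Sema6a, the ligand of Plxna2 and Plxna4, rose on day 5 from low values. It held 7.02, 5.72 and 10.4 at day 0 and 19.3, 16.3 and 19.8 on day 5, without overlap. It rose by 1.19 ± 0.44 on the log2 scale (adjusted p = 0.0495), close to the threshold, and 15 of the 23 fits that each left out 1 library lost it (highest adjusted p 0.134). Sema6c reached a larger difference on day 2, 1.80 ± 0.74, from 3.51, 6.86 and 0 to 9.99 and 10.8, but its spread kept it uncalled (adjusted p = 0.0728). Sema6d, a Plxna1 ligand, was at 50.9, 50.3 and 37.7 at day 0 and 66.7, 81.3 and 81.6 on day 5, a difference of 0.72 ± 0.21 (adjusted p = 0.0152).

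Sema5a, a transmembrane ligand with thrombospondin repeats, held 49.1, 81.2 and 79.3 at day 0 and 28.0, 39.1 and 44.2 on day 1. The day 1 libraries were all lower, and the log2 difference of -0.88 ± 0.22 (adjusted p = 0.0023) was under 2-fold and turned to 0.27 under totals (adjusted p = 0.315). Sema7a held 14.0, 27.4 and 23.4 at day 0 and 32.9, 36.8 and 36.1 on day 5, a difference of 0.73 ± 0.26 (adjusted p = 0.0403), also under 2-fold.

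**Figure D4:**
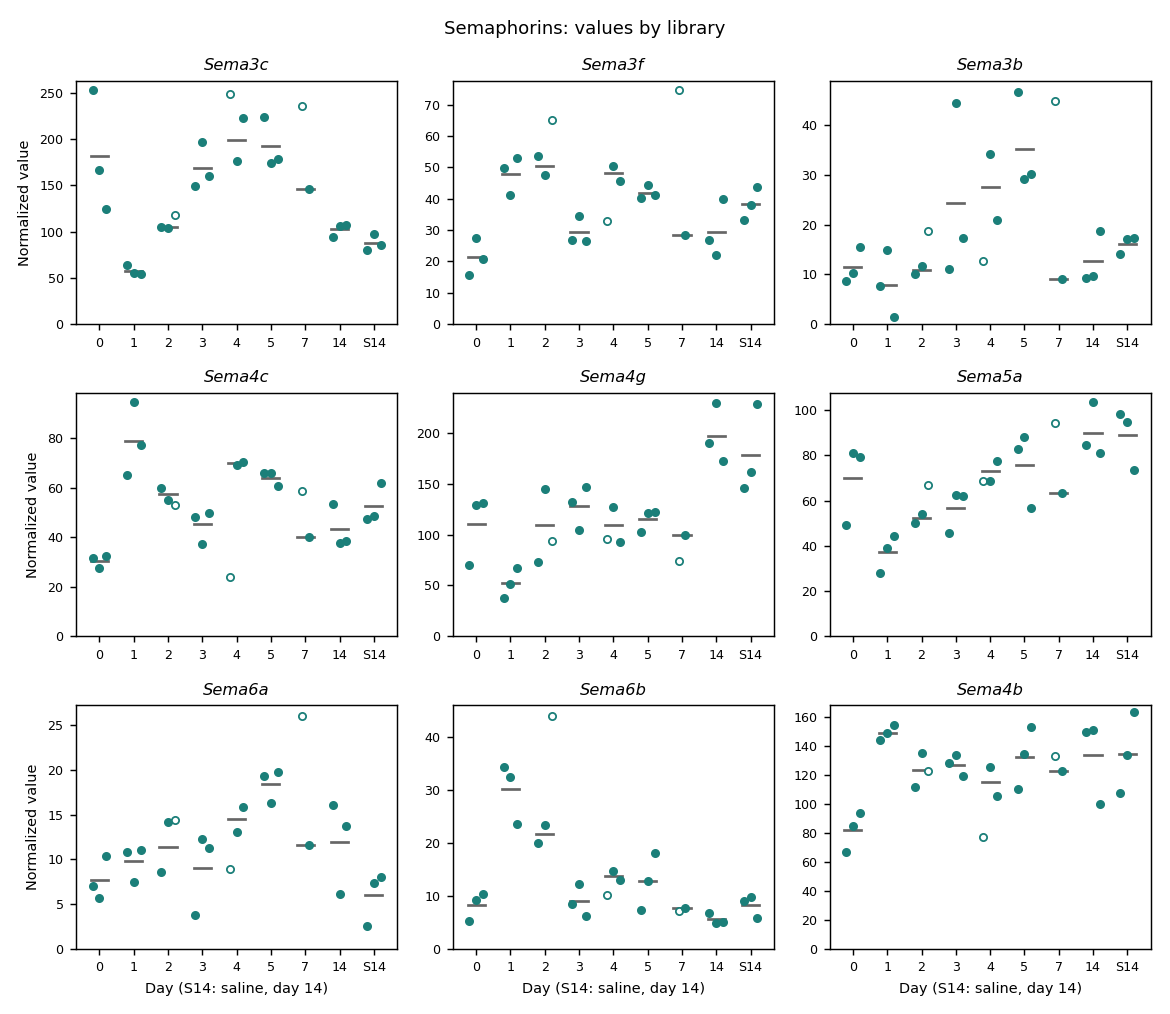
Normalized value of 9 semaphorin genes in each library (y axis, from 0) by group (x axis, S14 is saline on day 14), with a bar at the mean of the libraries used in the tests and open points for the 3 libraries the study left out. Sema3c, Sema4g and Sema5a are low on day 1 (for Sema4g and Sema5a in the deposited scaling only), while Sema6b and Sema4c are high.

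Known ligands and their receptors were also set side by side, as mean levels per kb of exon. Of Sema3f and Nrp2 both rose: Sema3f went from 4.11 at day 0 to 9.22 on day 1 and 9.72 on day 2, and Nrp2 from 2.25 to 7.16 and 7.45. For Sema4d and Plxnb1 the receptor changed and the ligand was not called, with Sema4d at 15.2 and 16.3 per kb on days 0 and 1 and Plxnb1 at 3.16 and 19.3. For Sema4c and Plxnb2 it was the ligand, with Sema4c at 6.64 and 17.2 and Plxnb2 at 154 and 169.9. These pairings depend on the control. With saline as control, Nrp2 (1.73) and Plxnb1 (1.96) stayed called on day 1. Sema3f (0.32, and 0.40 on day 2) and Sema4c (0.57) were not called. Plxnc1 was called on day 5 and its ligand Sema7a was not, at 1.23 and 0.73 on the log2 scale, and the difference between these changes was not tested. On day 1 Plxnb1 had come close to Plxna1 (22.1 per kb), the second plexin at day 0.

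Summed per kb over each family, semaphorins went from 128 to 138 in the day 0 libraries to 175 to 181 on day 5, and neuropilins from 12.3 to 15.4 at day 0 to 27.5 to 28.1 on day 2. The plexin sum, which Plxnb2 dominates, was 163 to 210.4 at day 0 and 245 to 247 on day 2. These ranges did not overlap with day 0. On day 14 the sums after saline and after IL-1α were 141 to 175 and 152 to 162 for semaphorins, both above day 0. They were 206 to 246 and 198 to 225 for plexins and 13.6 to 14.9 and 14.2 to 19.3 for neuropilins, all overlapping with day 0.

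Day 5 was compared with day 1 to set the later phase of the injury against its first day, and 4 members were higher and 2 lower on day 5, where 11% of all tested genes were called (5.88% up and 5.12% down). Its fold changes do not use the day 0 libraries, which enter only through the shared estimate of the spread and the filter. Sema3b rose from 7.64, 14.8 and 1.47 on day 1 to 46.6, 29.1 and 30.1 on day 5, a log2 difference of 2.35 ± 0.52 (adjusted p = 0.00159), with day 1 replicate 3 the lowest. Sema3c, at 64.3, 55.3 and 54.5 on day 1 and 224, 175 and 178 on day 5, differed by 1.71 ± 0.18 (adjusted p = 6.31e-07). Neither pair of groups overlapped, and both calls held in all fits that left out 1 library.

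Sema4g was at 38.2, 51.2 and 67.0 on day 1 and 103, 121 and 122 on day 5, a rise of 1.16 ± 0.26 (adjusted p = 0.0018), and Sema5a at 28.0, 39.1 and 44.2 and 82.7, 88.2 and 56.7, a rise of 1.01 ± 0.22 (adjusted p = 0.00113). Their groups did not overlap. Without day 1 replicate 1 the Sema4g value was 0.96, and the Sema5a value was 0.83 without that library, 0.94 without day 5 replicate 1 and 0.89 without day 5 replicate 2, all just under 2-fold. Scaled to totals, 2 members were higher and 2 lower, with the median gene shifted by -0.37, and both Sema4g and Sema5a were among those lost (0.78 and 0.64).

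Plxnb1 and Sema6b were lower on day 5. Plxnb1 went from 171, 209 and 175 to 129, 69.3 and 62.7, a change of -1.15 ± 0.24 (adjusted p = 0.000891), which without day 5 replicate 3 was -0.95 and under 2-fold. Sema6b went from 34.4, 32.4 and 23.6 to 7.23, 12.8 and 18.0, a change of -1.25 ± 0.35 (adjusted p = 0.00943), lost without day 5 replicate 1 (-0.92, adjusted p = 0.0686). In both genes the day 1 and day 5 libraries did not overlap. Nrp2 differed little between these days, by -0.17 ± 0.24 with a 95% interval of -0.67 to 0.34 (adjusted p = 0.645). Over the same interval all 8 neutrophil markers and 6 of 12 monocyte and macrophage markers fell and 6 of 8 fibroblast and 3 of 8 acinar markers rose, and their part in these member changes was not tested.

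**Figure D5:**
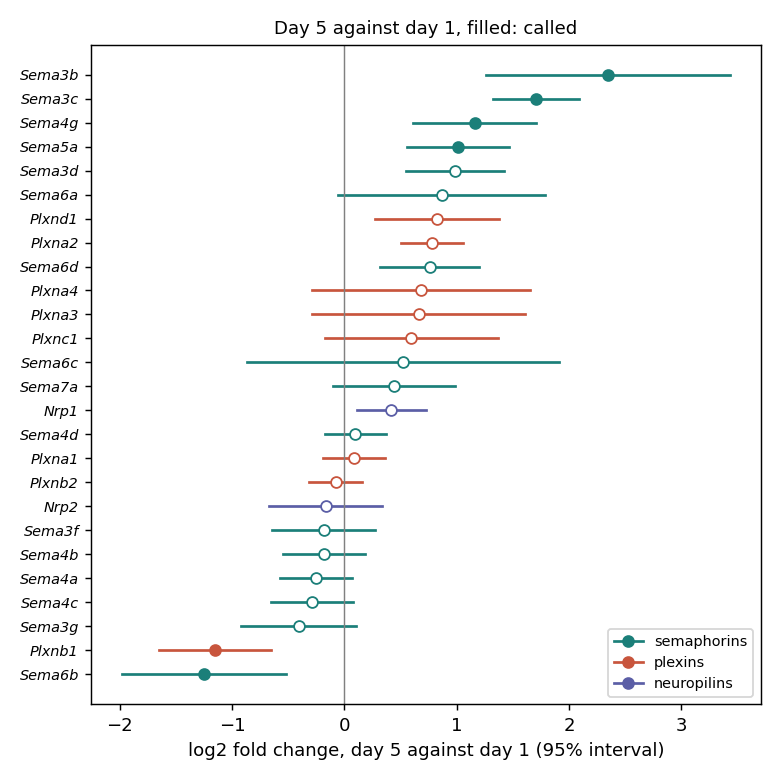
Log2 fold change of day 5 against day 1 (x axis) for the 26 tested members, ordered by value, with the 95% interval as a line and filled points for the 6 called. Sema3b and Sema3c lie at the upper end at 2.35 and 1.71, and Plxnb1 and Sema6b at the lower end at -1.15 and -1.25.

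Day 2 against day 1 gave 1 call, a rise of Sema4g, where 2.65% of all tested genes were called (2.02% up and 0.632% down). Its libraries held 38.2, 51.2 and 67.0 on day 1 and 73.5 and 144 on day 2, with day 2 replicate 2 far above replicate 1. The log2 difference was 1.01 ± 0.29 (adjusted p = 0.0378), and it was 0.52 without day 2 replicate 2 (adjusted p = 0.543). Leaving out day 1 replicate 1 (adjusted p = 0.171) or day 1 replicate 2 (adjusted p = 0.0758) ended the call as well.

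The later groups stood closer to day 0. On day 7 limma called 0 of the 26 members, against 0.189% of all genes (0.116% up and 0.0727% down), and 2 members had an unadjusted p under 0.05. That day rested on replicate 3 alone, so that its spread was taken from the other groups. With day 7 replicate 1 added, Nrp2, Plxnb1 and Sema3f were called up (1.24, 1.61 and 1.11), though replicate 3 stayed near day 0, with Nrp2 at 37.4 and 109.6 in replicates 3 and 1. On day 14 after IL-1α, 2 members rose, Plxnb1 and Plxna3, against 1.66% (1.27% up and 0.392% down), and after saline 0 did, against 0.959% (0.669% up and 0.291% down), with 8 members at an unadjusted p under 0.05 in each. When the 2 groups of day 14 were compared directly, limma called 0 members and 0% of all genes, and 0 members had an unadjusted p under 0.05. The largest member difference there was that of Sema6a, 0.91 ± 0.44, with a 95% interval of -0.02 to 1.83 (adjusted p = 0.987). Medians of the 26 members against day 0 were 0.26 after IL-1α and 0.22 after saline.

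Genes that work with these receptors were followed in 2 lists. The first held 21 partners and co-receptors, all tested, and 6 rose on day 1, 5 on day 2, 3 on day 3, 4 on day 4 and 5 on day 5, with 0 falls. Mst1r is among the 5 rises of day 5, and it passed the filter through days 4 and 5, where it was high. Of all tested genes, 11.3%, 11%, 2.57%, 6.97% and 9.8% rose on days 1, 2, 3, 4 and 5. The median log2 change of the list was 0.39 on day 1 and 0.39 on day 5, against 0.03 and 0.01 for all tested genes. The genes of this list with the largest changes are known mostly from leukocytes. Trem2, which with its adaptor Tyrobp forms a complex with Plxna1 on myeloid cells, was at 2.29 to 7.02 at day 0 and at 122 to 127 on day 2, a log2 rise of 4.63 ± 0.39 (adjusted p = 4.06e-08), and Tyrobp was at 22.1 to 54.4 and 299 to 303, a rise of 3.05 ± 0.32 (adjusted p = 5.49e-07). Cd72, the Sema4d receptor of B cells, rose by 2.51 ± 0.42 on day 2 (adjusted p = 0.000129), with 8.13 to 12.4 at day 0 and 44.1 to 84.8 on day 2.

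Vegfd, a lymphatic growth factor that neuropilins can bind, was at 1.75 to 6.86 at day 0 and 15.9 to 24.4 on day 4, a log2 rise of 2.28 ± 0.47 (adjusted p = 0.00266). Mst1r, a kinase that associates with class B plexins, was at 0 to 6.50 and reached 4.82 to 18.0 on day 5, a rise of 2.12 ± 0.78 (adjusted p = 0.0484) at low values with overlapping libraries. The monocyte and macrophage markers given above rose on the same days, and their part in these rises was not tested.

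The second list held 34 intracellular transducers, of which 31 were tested and Crmp1, Dpysl4 and Dpysl5 were not. On day 1, 7 rose and 1 fell, on day 2, 8 rose, on day 3, 0 changed, on day 4, 3 rose and on day 5, 4 rose. The 7 rises of day 1 include Rnd1, which passed the filter through that day alone. Of all tested genes, 11.3% rose and 5.09% fell on day 1. The shares that rose on days 2, 3, 4 and 5 were 11%, 2.57%, 6.97% and 9.8%. On days 4 and 5 the counts of this list were near these shares. The median log2 change of the list was 0.38 on day 1 and 0.20 on day 5, against 0.03 and 0.01 for all tested genes. Rnd1, a small GTPase that binds the inner side of plexins and helps to open them for signalling, was at 0 to 1.30 at day 0 and at 15.5 to 23.6 on day 1, and its groups did not overlap. Its log2 rise was 4.00 ± 0.64, and the change from day 1 to day 5 was -2.30 ± 0.64. Among the libraries used, Rnd1 reached the filter value of 10 only on day 1 (highest value elsewhere 7.51, on day 2). It thus entered the tests through the group where it was high, and its differences from day 1 are given without adjusted p. Since its day 0 values correspond to at most 1 read per library, the size of the day 1 rise is uncertain.

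Rras, the small G protein on which the plexin GTPase-activating domain acts, was at 33.8 to 43.4 at day 0 and at 89.1 to 137 on day 1, a log2 rise of 1.56 ± 0.23 (adjusted p = 1.32e-05). Mical1, an oxidase that severs actin filaments downstream of class A plexins, rose by 2.16 ± 0.34 on day 2 (adjusted p = 6.52e-05), with 7.02 to 11.4 at day 0 and 40.2 to 47.5 on day 2. Pak1, a kinase that acts on the cytoskeleton, rose by 1.79 ± 0.30 (adjusted p = 0.000122), and Dpysl2, the collapsin response mediator of class 3 semaphorins, by 1.69 ± 0.38 (adjusted p = 0.0018), both on day 2. Farp2, an exchange factor that acts below class A plexins, was the 1 transducer that fell on day 1, with a change of -1.14 ± 0.16 (adjusted p = 8.67e-06), and it was named after its value was seen.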

How the data were processed

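Whole lacrimal gland RNA was sequenced from stranded poly(A) libraries. The authors aligned reads to mm10 with STAR, estimated counts per gene with RSEM and normalized them with DESeq2 (no versions given, and the counting strand is not given in the sources used here), so that each deposited value is a normalized read signal, a count divided by its library's size factor. Only 64.2% to 82.8% of low values were whole multiples of the value of a single read, and whole reads were not recovered. Every column of the table had a sample (0 without), and it held no comparison columns.

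Genes that reached 10 in no fewer than 2 of the 23 libraries entered the tests, and log2(value + 1) was fitted in limma 3.58.1 (R 4.3.3) with 1 coefficient per group, a trended prior and Benjamini-Hochberg adjustment over all 13762 genes, a script first tested on simulated data. The 95% intervals come from the same fit. The 3 libraries that the study left out were not used. Members, marker lists and pathway lists were chosen with earlier results of these data known. Every member was named, with library values for those called, and up to 5 genes per pathway list, largest change first. Alternatives were all 26 libraries, a pseudocount of 0.1, no filter, a replicate block, only the 2 groups compared, scaling to totals, adjusted p alone, saline as control and leaving out each library. Symbols and coordinates are from GENCODE M21 (GRCm38), with levels per kb of merged exon length. Promoters are the 250 bases before RefSeq starts. Low values rest on few reads, and the depth limits their precision.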

Additional observations from a re-analysis of the deposited data

Results flagged for a closer look

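Between the first day and day 5, 6 members moved past the threshold, with fold changes that do not use the day 0 libraries. Plxnb1 (-1.15) and Sema6b (-1.25) were lower on day 5, while Sema3b (2.35), Sema3c (1.71), Sema4g (1.16) and Sema5a (1.01) were higher, all as log2 changes by limma's test of the difference itself. Of these, Sema3b and Sema3c were called under every alternative tried for that comparison. Sema4g was also higher on day 2 than on day 1 (1.01), with day 2 replicate 2 alone at 144 and replicate 1 at 73.5.

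In the 3 libraries that the study left out, some members also lay above the level of the control libraries. The counts below were made for members only, without the share over all tested genes. They therefore cannot tell a trait of the members from a shift of the whole library. In day 2 replicate 3, 8 of the 26 tested members exceeded 2 times their highest day 0 library: Nrp1, Nrp2, Plxnb1, Plxnc1, Plxnd1, Sema3f, Sema6b and Sema6c. The kept libraries of that day had 4 and 3 such members, and 20 of the 26 members were higher in replicate 3 than in both of them. In day 4 replicate 1 there was 1 such member, Nrp2. In day 7 replicate 1 there were 9, namely Nrp1, Nrp2, Plxnb1, Plxnc1, Plxnd1, Sema3b, Sema3f, Sema6a and Sema6c, whereas day 7 replicate 3 had 0, and 22 of the 26 members were higher in replicate 1 than in replicate 3. Plxnb1, for example, was at 158 and 52.9 in these libraries, and Plxnd1 at 129 and 45.2.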

How the results depend on the processing

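Depth limits the low members: a single read was worth 1.14 to 1.75 units at day 0, so that Plxna4, Sema6a, Sema6b and Sema6c rest on few reads. Of the 35 member calls, 35 were kept with adjusted p alone, 25 with all 26 libraries, 29 without the filter, 29 with only the 2 groups compared in the fit, 31 with a pseudocount of 0.1 and 30 when scaled to totals, while 12 of 28 were kept with saline as control. Where a setting changed a result, the cause was not tested.

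Scaled to totals, 19, 19, 12, 15 and 18 members were called on days 1, 2, 3, 4 and 5 (62.1%, 41.6%, 21.2%, 28.1% and 33.5% of all tested genes rose) and 1 after saline, and Sema4g on day 1 turned to 0.12. With adjusted p alone the counts were 14, 12, 4 and 13 on days 1, 2, 3 and 5, 5 on day 14, 4 after saline, 3 for day 2 against day 1 and 11 for day 5 against day 1. These counts, and those of the settings that follow, are of members only, without the share over all tested genes. They therefore do not describe a trait of the members. With all 26 libraries they were 0 on day 3, 1 on day 4, 3 on day 7, 0 on day 14 and 0 for day 2 against day 1. A pseudocount of 0.1 gave 0 on day 3 and 1 on day 14, and no filter gave 0 on day 3, 1 on day 14 and 0 for day 2 against day 1. With only the 2 groups compared the counts were 0, 3 and 0 on days 3, 4 and 14, and with saline as control 0, 2, 4 and 0 on days 3, 4, 5 and 14. Without all day 3 libraries, an alternative chosen after seeing the data, day 14 gave 1 call.

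Leaving out each library in turn gave 6 to 8 calls on day 1, 4 to 7 on day 2, 0 to 2 on day 3, 2 to 6 on day 4, 5 to 7 on day 5, 0 to 0 on day 7, 0 to 4 on day 14, 0 to 3 after saline, 0 to 1 for day 2 against day 1, 4 to 7 for day 5 against day 1 and 0 to 0 for day 14 against saline. The day 14 count was 0 without day 0 replicate 1 or day 14 replicate 1 and 4 without day 0 replicate 3, and the single call of day 3 and a call of day 14, both of Plxna3, were lost in 15 of the 23 fits. Without day 1 replicate 1, day 1 replicate 2 or day 2 replicate 2 the call of day 2 against day 1 was lost. The day 4 count was 3 without day 0 replicate 1 and 2 without day 4 replicate 2, and after saline 3 members were called when day 0 replicate 2 was left out, 2 when day 0 replicate 3 was and 1 when saline replicate 2 was.

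The mouse numbers did not pair the samples: the residuals of same-numbered libraries had correlations with a median of 0.00 (-0.34 to 0.30, 70 pairs). With the number as a replicate block all 35 calls were kept, and Plxna3 was added on day 5 and after saline, where the count went to 1.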
